A study of Mus musculus with 9 samples.

Results

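The genes described here are 37 genes of glycolysis, pyruvate handling and the hypoxia response, out of 56481 gene symbols counted in 9 mouse RNA libraries. They were chosen as a list by name, and all 37 were found in the table: 2 glucose carriers, 15 glycolytic enzymes, 2 lactate dehydrogenase chains, 4 PFKFB enzymes, 7 genes of pyruvate entry into the mitochondrion and its control, and 7 genes of the hypoxia response. The libraries fall into 3 groups of 3. The pNCC libraries are of primary neural crest cells from the E13.5 mouse embryo, kept in DMEM with 10% fetal bovine serum. The induced cells (iCEC) were neural crest cells moved to DMEM/F12 with 5% knockout serum replacement plus SB431542 at 5 µM, which blocks signalling through the TGF-β receptor kinase ALK5. Per the labels, this medium was changed at intervals of 2 days, cells had clustered by day 4 and colonies were present on day 12. The cells labelled primary corneal endothelial cells (pCEC) were kept in the same serum medium as pNCC, and no genotype, strain or animal age is given for them. Medium, serum, inhibitor and cell identity all change together between iCEC and the other groups and cannot be told apart, and the labels give no oxygen level for any culture. Nothing says whether replicates came from separate animals or cultures, so the p-values reflect the scatter among these libraries alone, and that scatter may be technical.

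Glycolysis turns glucose into pyruvate in the cytosol, and lactate dehydrogenase can reduce the pyruvate to lactate, which leaves the cell. Alternatively the mitochondrial pyruvate carrier takes pyruvate to the pyruvate dehydrogenase complex, which the PDK kinases switch off by phosphorylation. In low oxygen the transcription factor HIF-1 escapes destruction by the prolyl hydroxylases and raises many genes of glycolysis along with Pdk1, Vegfa, Bnip3 and Egln3. The corneal endothelium lines the cornea towards the anterior chamber and is known for a high use of glucose and for carrying lactate out of the stroma into the aqueous humour.

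Levels are given in CPM, the usual unit of read counts scaled to library size, here after TMM scaling. Total counts ran from 27389292 to 47967113 per library, so that 3 counts correspond to 0.0625 to 0.11 CPM before library scaling, and mitochondrially encoded genes took 1.42% to 3.65% of the counts. The pCEC libraries did not look like corneal endothelium alone. Of 11 markers of the surface epithelium 9 were higher in pCEC than in pNCC, beside 30.3% of all genes tested. The 11 together stood at 55318 to 82075 CPM in pCEC, 15409 to 19896 CPM in iCEC and 85.8 to 137 CPM in pNCC. The corneal keratin Krt12 stood at 8985, 11492 and 12808 CPM in the pCEC libraries, at 0 in every pNCC library and at 1 count in all of iCEC. In iCEC 9 of the 9 surface epithelium markers tested were higher than in pNCC, beside 16.1% of all genes tested. Krt12 and Pax6 were too low to be tested there. Pax6 stood at 0.103, 0.746 and 0.0498 CPM in iCEC and at 976, 878 and 832 CPM in pCEC. The corneal endothelial collagen gene Col8a2 was found in pCEC at 43.2 to 168 CPM, but in iCEC it was at 0, 0.115 and 0.0995 CPM. Fibroblast and keratocyte markers summed to 29631 to 35611 CPM in pNCC, 229 to 338 CPM in iCEC and 682 to 9341 CPM in pCEC, and cell cycle genes to 733 to 979, 177 to 484 and 477 to 643 CPM. The part of these cell mixtures in the values below was not tested. In bulk libraries fewer cells of a type and less RNA per cell cannot be told apart.

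To show the sequences in which a hypoxia response element could be looked for, promoters are printed for the 2 genes with the highest and the 2 with the lowest mean log2 fold change among those called the same way against pNCC in both iCEC and pCEC, from 250 bases before to 50 after the start (RefSeq, GRCm38.p6). Capitals mark the core of the hypoxia response element, ACGTG or GCGTG, read on either strand, so that CACGT and CACGC are the same letters on the other strand. The ACGTG core is also contained in the E-box CACGTG, which other factors bind. The Egln3 promoter lies at chr12:54203825-54204124 on the minus strand, Aldoc at chr11:78322823-78323122 on the plus strand, Eno2 at chr6:124769624-124769923 on the minus strand and Pdk3 at chrX:93832101-93832400 on the minus strand.
Egln3: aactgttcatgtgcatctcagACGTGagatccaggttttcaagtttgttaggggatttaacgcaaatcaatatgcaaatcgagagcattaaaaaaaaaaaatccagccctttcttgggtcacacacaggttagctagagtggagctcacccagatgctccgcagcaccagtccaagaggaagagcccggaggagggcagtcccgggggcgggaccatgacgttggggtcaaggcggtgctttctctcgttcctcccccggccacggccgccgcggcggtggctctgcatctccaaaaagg
Aldoc: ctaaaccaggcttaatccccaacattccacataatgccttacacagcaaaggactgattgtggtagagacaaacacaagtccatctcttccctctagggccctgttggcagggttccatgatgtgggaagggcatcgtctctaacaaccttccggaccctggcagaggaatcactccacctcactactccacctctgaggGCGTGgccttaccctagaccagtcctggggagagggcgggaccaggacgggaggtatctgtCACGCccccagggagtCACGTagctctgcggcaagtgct
Eno2: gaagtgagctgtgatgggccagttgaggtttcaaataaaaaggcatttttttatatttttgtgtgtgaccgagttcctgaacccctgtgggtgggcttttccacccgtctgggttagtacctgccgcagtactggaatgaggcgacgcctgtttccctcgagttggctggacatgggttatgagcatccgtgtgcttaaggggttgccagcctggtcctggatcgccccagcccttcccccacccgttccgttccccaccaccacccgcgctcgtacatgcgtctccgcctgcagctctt
Pdk3: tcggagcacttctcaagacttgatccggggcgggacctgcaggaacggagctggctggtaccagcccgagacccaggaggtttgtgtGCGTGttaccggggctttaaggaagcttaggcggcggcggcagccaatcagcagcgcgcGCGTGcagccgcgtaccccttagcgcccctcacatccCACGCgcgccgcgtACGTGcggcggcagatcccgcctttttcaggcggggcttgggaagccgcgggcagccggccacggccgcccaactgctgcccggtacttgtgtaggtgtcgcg
The Egln3 window holds 1 ACGTG and no GCGTG, the Aldoc window 1 and 2, the Pdk3 window 1 and 3, and the Eno2 window neither. RefSeq promoters were matched for 35 of the 37 genes, with 56 windows, some of which overlap because a gene has several starts. A core was present in 42 of the 56 windows (75%) and in 14380 of 32851 windows of all genes (43.8%). ACGTG was present in 44.6% of the windows and in 19.6% of those of all genes, and GCGTG in 55.4% and 32.4%; a window may hold both. A match of these letters is a description of the sequence only: the raised Egln3 and the lowered Pdk3 both have one.

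Most of the pathway stood lower in pCEC than in pNCC, while most of the genes were not called different between iCEC and pNCC. A few, such as Egln3, stood far above pNCC in iCEC, and Eno2 stood far below it. Against pNCC, iCEC had 9 of the 37 genes higher and 4 lower by edgeR's quasi-likelihood test at an adjusted p under 0.05, beside 31.3% of all genes called in that comparison (16.1% higher, 15.1% lower). pCEC had 9 higher and 22 lower than pNCC, beside 62.5% of all genes (30.3% higher, 32.2% lower). iCEC had 20 higher and 2 lower than pCEC among the 36 genes that could be tested, beside 20.4% of all genes (10.5% higher, 9.92% lower). A filter on low counts was passed only through the higher group by Slc2a3 and Pdk4 in pCEC against pNCC. The same holds for Pdk4 and Ankrd37 in iCEC against pCEC. Their calls are part of these counts. The median log2 fold change of the 37 genes was 0.51 for iCEC against pNCC (0.05 over all genes), -1.11 for pCEC against pNCC (-0.01) and, over the 36, 1.36 for iCEC against pCEC (0.04). The comparisons share libraries, pNCC in the first and second and pCEC in the second and the other, so they are not independent of each other. When libraries were scaled by total count only, the median over all genes moved to -0.14 for pCEC against pNCC and to 0.17 for iCEC against pCEC. Of the 37 genes, 29 of the 31 calls of pCEC against pNCC held without any 1 of its 6 libraries, but only 5 of the 13 calls of iCEC against pNCC and 7 of the 22 of iCEC against pCEC did. pCEC 1 is labelled polyA RNA and pCEC 2 and 3 total RNA. With pCEC 1 as the only pCEC library, 8 genes were higher and 24 lower than in pNCC. In iCEC against pCEC 1 alone edgeR called none of 18806 genes (2529 at an unadjusted p under 0.05), and the median log2 fold change of the 37 genes was 1.87 there.

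**Figure D1:**
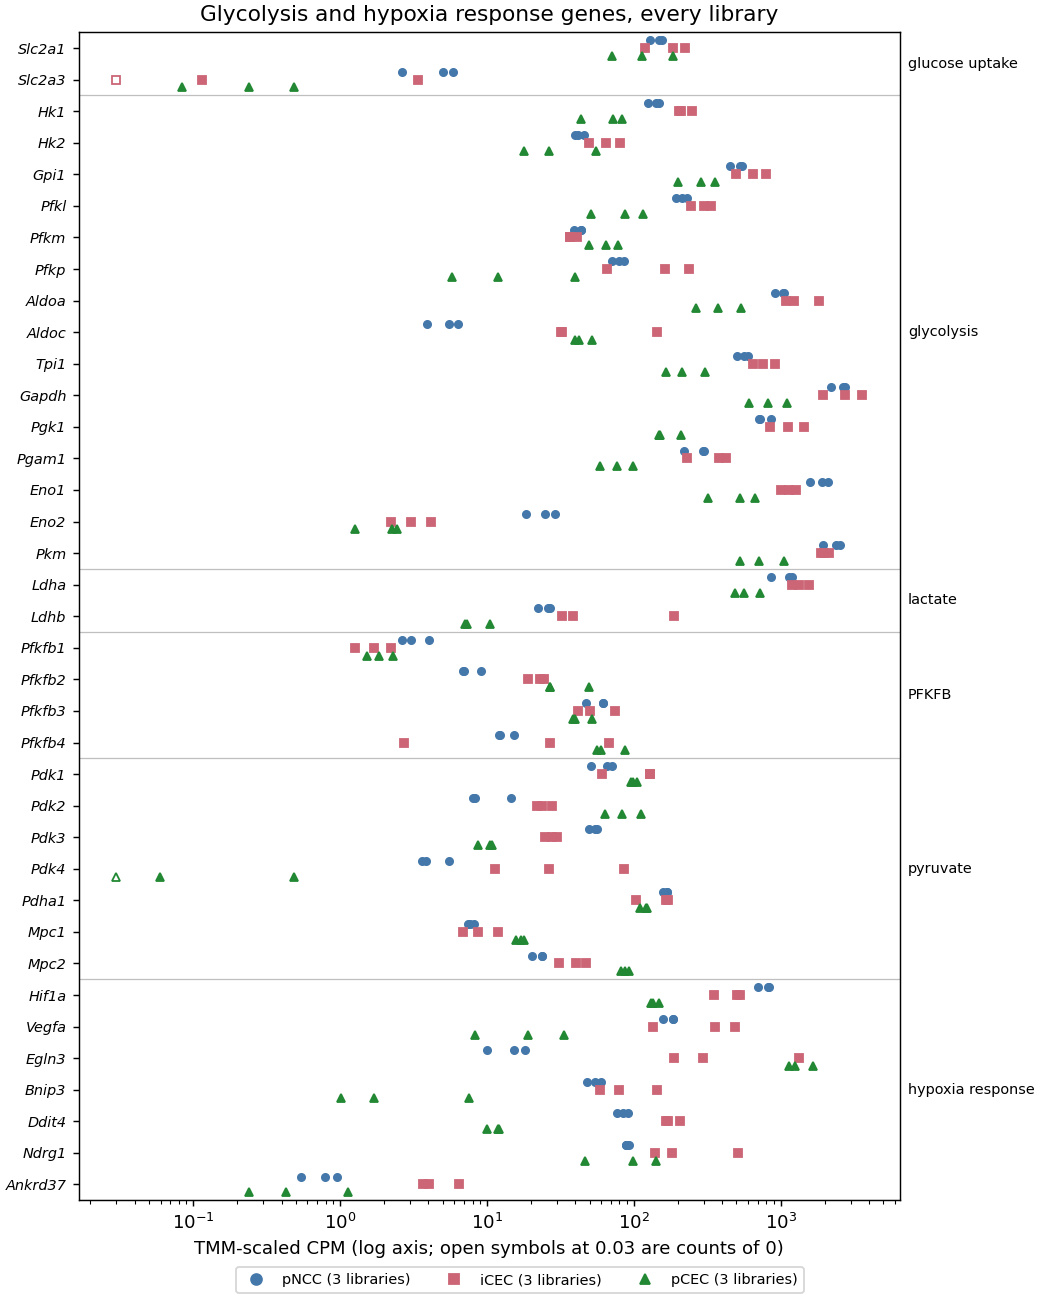
TMM-scaled CPM (log axis) of the 37 genes in each of the 9 libraries, grouped by role; circles are pNCC, squares iCEC and triangles pCEC, and open symbols at the left mark counts of 0. The triangles lie left of the circles for most glycolytic genes, Pgk1 at 149.5 to 212 against 715 to 857 CPM for example, and far right of them for Egln3.

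Libraries of 1 group were not alike. iCEC 2 was the highest iCEC library for 21 of the 37 genes, against 36.2% of 13306 genes expressed in iCEC, and these included Aldoc, Egln3, Vegfa, Bnip3, Ndrg1 and Ankrd37. iCEC 3 was the lowest for 19 of the 37 (46.0% of all genes). pCEC 3 was the highest pCEC library for 24 of the 37, against 33.1% of 13388 genes, and pCEC 1 the lowest for 24 (46.6%). The summed level of the 15 glycolytic enzymes was 9053, 11329 and 10661 CPM in pNCC 1 to 3, 10912, 13033 and 9148 CPM in iCEC and 2513, 3480 and 4750 CPM in pCEC. The pNCC and iCEC ranges overlap, and every pCEC library is below both.

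Neither glucose carrier passed the test in iCEC against pNCC. Slc2a1, which encodes the widespread carrier GLUT1, stood at 149, 155 and 129.5 CPM in pNCC, 185, 223 and 120.0 CPM in iCEC and 71.7, 113 and 186 CPM in pCEC. The 3 groups overlapped, and no comparison passed (edgeR adjusted p = 0.39, 0.478 and 0.337), although iCEC against pNCC did without iCEC 3 (adjusted p = 0.0428) and pCEC against pNCC with pCEC 1, the polyA library, alone (adjusted p = 0.00543). The high-affinity carrier gene Slc2a3 (GLUT3) was rare: 5.85, 5.06 and 2.66 CPM in pNCC, 3.39, 0.115 and 0 CPM in iCEC, and 0.24, 0.489 and 0.0839 CPM in pCEC. It fell by 4.02 ± 0.61 on the log2 scale in pCEC against pNCC (SE, adjusted p = 9.82e-04), with a log2 fold change of -4.70 without pCEC 2. Slc2a3 passed the filter on low counts through its pNCC libraries in both comparisons with pNCC, and it was too low to be tested between iCEC and pCEC. It had 169 counts in iCEC, nearly all from iCEC 1. iCEC against pNCC did not pass (log2 -1.91 ± 1.63, adjusted p = 0.417), but did without iCEC 1 (adjusted p = 0.0252). Per kilobase of exon Slc2a1 made up 98.5% ± 0.445 (SD, n = 3) of the counts of these 2 carriers in pNCC, 99.7% ± 0.5 in iCEC and 99.9% ± 0.0972 in pCEC.

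Of the 15 glycolytic enzymes, 12 were lower in pCEC than in pNCC, by 1.85-fold (Gpi1) to 12.5-fold (Eno2), and 2 were higher. In iCEC 2 were higher than in pNCC, 2 were lower and 11 did not pass. Among all genes tested, 16.1% were called higher and 15.1% lower in iCEC than in pNCC. The shares were 30.3% and 32.2% for pCEC against pNCC, and 10.5% and 9.92% for iCEC against pCEC. Between iCEC and pCEC 11 were higher in iCEC, by 2.36-fold (Eno1) to 8.38-fold (Pfkp), and 4 did not pass, with 8 of the 11 calls lost in at least 1 fit that left out a library (adjusted p 0.0518 to 0.155). DESeq2 called Pfkm lower there, as did edgeR with all 9 libraries in 1 fit and without iCEC 3 (adjusted p = 0.043 for the last). The 3 of the 11 that held without any 1 library were Hk1, Pgk1 and Pgam1. Without pCEC 2 all 8 others were lost, without pCEC 1 Gpi1, Pfkp, Aldoa, Gapdh, Eno1 and Pkm, without iCEC 1 Gpi1, Pfkp, Eno1 and Pkm, without pCEC 3 Gpi1 and Eno1, and without iCEC 2 Pfkp. Pfkp was 4.17 higher on the log2 scale without pCEC 3, in place of 3.07.

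The first step is the phosphorylation of glucose by hexokinase. Hk1 stood at 125, 142 and 149.7 CPM in pNCC, 209, 249 and 204 CPM in iCEC and 44.0, 72.0 and 82.8 CPM in pCEC. The 3 groups did not overlap, with iCEC highest and pCEC lowest. It was 1.62-fold higher in iCEC than in pNCC (log2 0.70 ± 0.16 SE, edgeR adjusted p = 0.0215) and 2.15-fold lower in pCEC (log2 -1.10 ± 0.22, adjusted p = 0.00326). The rise in iCEC was lost without any 1 of the pNCC libraries (adjusted p 0.0751 to 0.109) or with all 9 libraries in 1 fit (adjusted p = 0.052), and the difference of iCEC from pCEC was 3.48-fold (adjusted p = 0.00735). Hk2, the isozyme known as inducible by HIF-1, was at 41.8, 46.0 and 39.5 CPM in pNCC, 49.7, 81.0 and 64.3 CPM in iCEC and 17.8, 26.6 and 55.3 CPM in pCEC, and passed no comparison. Without iCEC 1 it passed as higher in iCEC than in pNCC (adjusted p = 0.0309), and without pCEC 3, or with pCEC 1 alone, as lower in pCEC (adjusted p = 0.0107 and 0.00264). Hk1 led the length-scaled counts of these 2 enzymes in all 9 libraries, with 69.6% ± 2.64 in pNCC, 70.6% ± 3.51 in iCEC and 60.0% ± 7.69 in pCEC. Gpi1, the glucose phosphate isomerase of the next step, was at 453 to 544 CPM in pNCC, 500.2 to 791 CPM in iCEC and 202 to 356 CPM in pCEC.

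Phosphofructokinase commits the sugar to glycolysis, and its subunits shifted. The liver type subunit Pfkl stood at 195, 232 and 212 CPM in pNCC, 246, 299 and 335 CPM in iCEC and 51.3, 87.6 and 116 CPM in pCEC. The platelet type Pfkp was at 71.1, 86.2 and 80.0 CPM, 163, 239 and 65.8 CPM, and 5.78, 11.9 and 40.1 CPM in the same order. The muscle type Pfkm went the other way, with 44.0, 38.9 and 43.8 CPM in pNCC, 36.7, 36.8 and 41.0 CPM in iCEC and 49.3, 77.6 and 65.1 CPM in pCEC. In pCEC every library was below pNCC for Pfkl and Pfkp and above it for Pfkm. Pfkl was 2.57-fold lower in pCEC (adjusted p = 0.00337), Pfkp 4.25-fold lower (adjusted p = 0.024) and Pfkm 1.48-fold higher (adjusted p = 0.0176). Between iCEC and pNCC, Pfkp passed only without iCEC 3 (adjusted p = 0.00367, against 0.138 with it). Against pNCC in pCEC, Pfkp was lost without pNCC 2 or pCEC 2 (adjusted p = 0.0611 and 0.085) or with no filter on low counts (adjusted p = 0.136), and fell by 3.16 on the log2 scale without pCEC 3 in place of 2.09. Pfkm was lost without pNCC 2, pCEC 2 or pCEC 3 (adjusted p = 0.0753, 0.0545 and 0.0536), and with pCEC 1 alone (adjusted p = 0.264). As shares of the length-scaled counts Pfkl held 63.2% ± 2.36 in pNCC and 65.6% ± 7.71 in iCEC but 37.5% ± 5.40 in pCEC, where Pfkm held 58.6% ± 8.51. Without length scaling Pfkl still led in pCEC, with 50.1% ± 2.20 against 39.9% ± 9.15 for Pfkm, so that the leading subunit there depends on the exon lengths used.

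Aldolase splits the 6-carbon sugar, and here a minor isozyme rose while the major one fell in pCEC. Aldoa stood at 911, 1056 and 1035 CPM in pNCC, 1226, 1832 and 1093 CPM in iCEC and 267, 373 and 536 CPM in pCEC, 2.61-fold below pNCC (adjusted p = 0.00187). Aldoc, the isozyme best known from brain, stood at 5.52, 3.94 and 6.38 CPM in pNCC, 32.6, 145 and 32.1 CPM in iCEC and 42.2, 40.1 and 52.3 CPM in pCEC. Every iCEC and pCEC library was above every pNCC library, and iCEC 2 stood far above all others. Aldoc was 13.54-fold higher in iCEC (log2 3.76 ± 0.72, adjusted p = 0.0114) and 8.33-fold higher in pCEC (log2 3.06 ± 0.22, adjusted p = 2.62e-05). The iCEC call was lost without pNCC 1 or pNCC 2 (adjusted p = 0.0578 and 0.0603), and the log2 fold change was 2.65 without iCEC 2. Aldoc still held only 0.472% ± 0.122 of the length-scaled aldolase counts in pNCC, 3.82% ± 2.40 in iCEC and 9.71% ± 2.33 in pCEC.

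The lower steps, from triose phosphate to pyruvate, moved together in pCEC. Tpi1 (triose phosphate isomerase), Gapdh, Pgk1 (the first ATP-forming kinase of the path), Pgam1, Eno1, Eno2 and Pkm (pyruvate kinase) were all lower than in pNCC. In each of these 7 every pCEC library was below every pNCC library. Of all genes tested, 32.2% were called lower in pCEC, and the share of all genes that separate in this way was not counted. Pgk1 stood at 715, 857 and 726 CPM in pNCC, 1118, 1437 and 842 CPM in iCEC and 149.5, 150.0 and 212 CPM in pCEC. It was 4.58-fold lower in pCEC than in pNCC (log2 -2.20 ± 0.18, adjusted p = 4.62e-05) and 6.90-fold higher in iCEC than in pCEC (adjusted p = 0.00276), while iCEC and pNCC overlapped (adjusted p = 0.116, or 0.0216 without iCEC 3). Pgam1 followed the same order, at 219.7, 296 and 299 CPM in pNCC, 382, 426 and 232 CPM in iCEC and 59.3, 77.3 and 98.8 CPM in pCEC, 3.54-fold lower in pCEC (adjusted p = 2.44e-04). Tpi1 stood at 508.5, 599 and 563 CPM, 649, 916 and 757 CPM, and 167, 214 and 306 CPM, 2.49-fold lower in pCEC. Gapdh, which is often used as a constant reference gene, stood at 2189 to 2735 CPM in pNCC, 1950 to 3603 CPM in iCEC and 606 to 1112 CPM in pCEC, 3.05-fold lower in pCEC (adjusted p = 7.50e-04). The 89 near-identical copies of Gapdh in the table held 0.564% as many counts as Gapdh. Pkm was at 1950 to 2553, 1888 to 2130 and 531 to 1050 CPM, 3.08-fold lower in pCEC.

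The enolases fell in both. Eno1, the widespread form, stood at 1594, 2115 and 1911 CPM in pNCC, 1270, 1003 and 1140 CPM in iCEC and 321, 525 and 667 CPM in pCEC. The groups did not overlap. It was 1.61-fold lower in iCEC than in pNCC (log2 -0.69 ± 0.20, adjusted p = 0.0455), a call lost without any 1 of the pNCC libraries or without iCEC 1 or iCEC 2 (adjusted p 0.0677 to 0.179), with total count scaling or with all 9 libraries in 1 fit (adjusted p = 0.0664 and 0.0724), and 3.80-fold lower in pCEC (adjusted p = 6.11e-04). Eno2, the form of neurons and neuroendocrine cells, stood at 29.3, 24.9 and 18.6 CPM in pNCC, 2.22, 4.16 and 3.04 CPM in iCEC and 1.26, 2.45 and 2.27 CPM in pCEC. Every iCEC and pCEC library was far below every pNCC library. Eno2 was 7.56-fold lower in iCEC (log2 -2.92 ± 0.35, adjusted p = 0.00253) and 12.5-fold lower in pCEC (log2 -3.64 ± 0.30, adjusted p = 4.82e-05), and both calls held without any 1 library. Eno1 held at least 97.9% of the length-scaled enolase counts in every library.

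**Figure D2:**
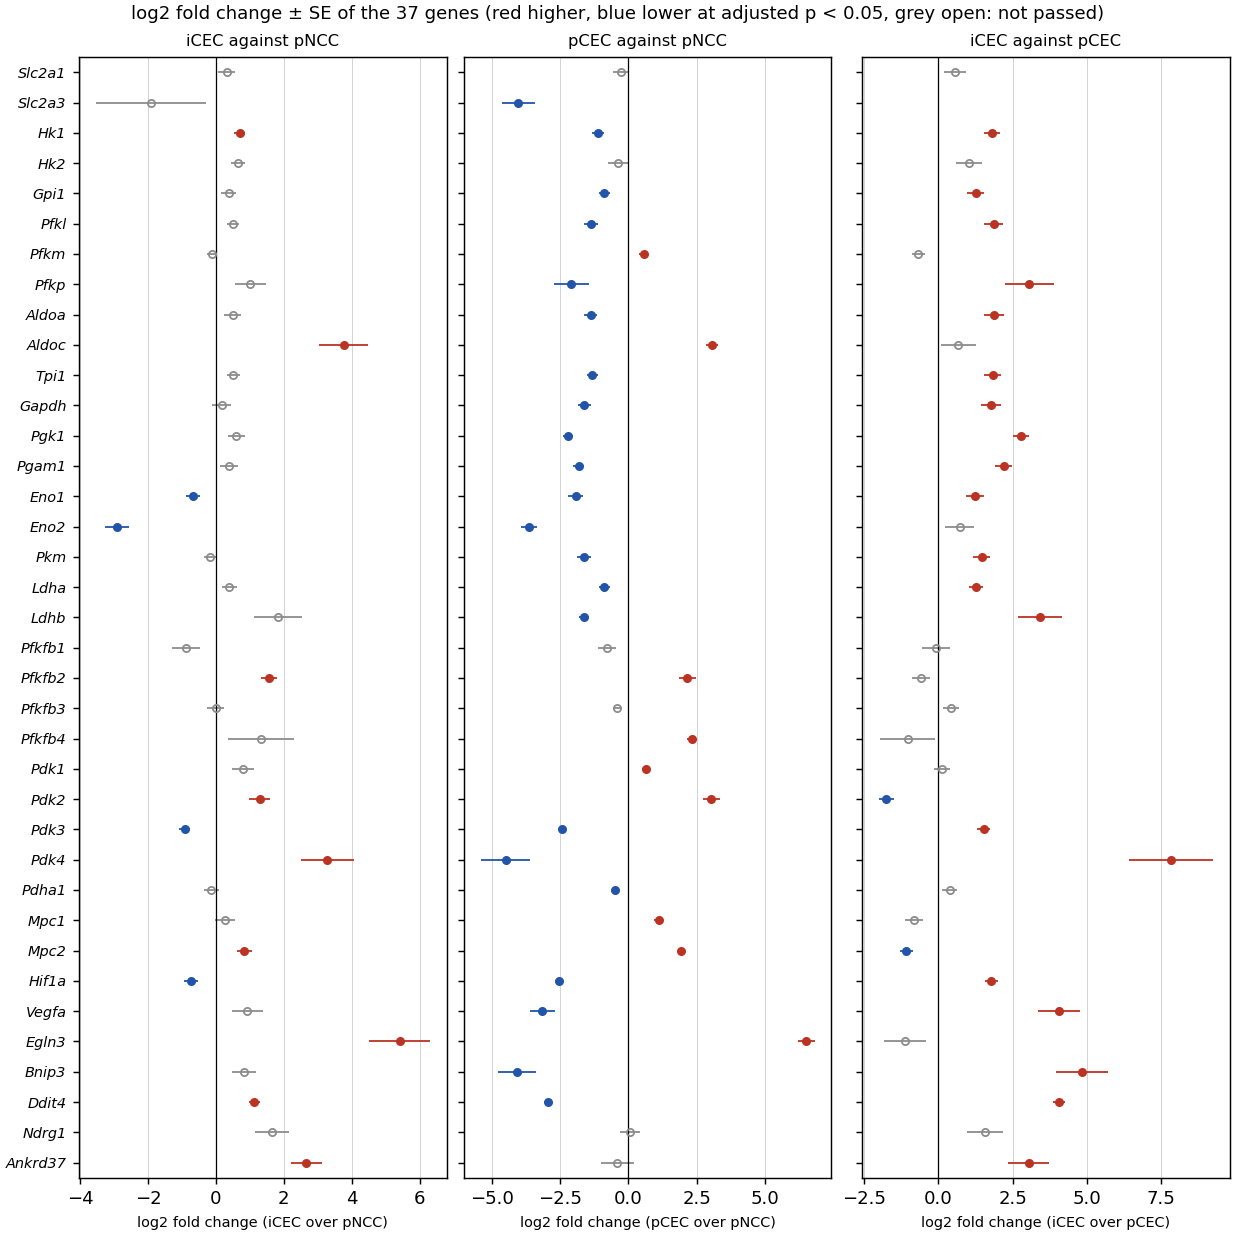
log2 fold change with its SE (bars) of the 37 genes in the 3 comparisons, by edgeR; filled red points were higher and filled blue points lower at an adjusted p under 0.05, and open grey points did not pass. Of the 15 glycolytic rows 12 are blue in the middle panel, with Pgk1 at -2.20, and Aldoc and Pfkm are red there. In the right panel 11 of the 15 are red, and Eno2, blue in the middle, is grey. On the left 11 of the 15 are grey.

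Lactate dehydrogenase is a tetramer of A and B chains, the A chain being the one known to favour lactate formation and the B chain lactate use. Ldha stood at 865, 1190 and 1141 CPM in pNCC, 1342, 1568 and 1204 CPM in iCEC and 487, 567 and 720.5 CPM in pCEC. It was 1.84-fold lower in pCEC than in pNCC (adjusted p = 0.00566), and iCEC, which lay above pNCC in every library, did not pass (log2 0.40 ± 0.21, adjusted p = 0.21). Ldhb stood at 26.2, 22.2 and 26.7 CPM in pNCC, 188, 38.5 and 32.5 CPM in iCEC and 7.37, 10.5 and 7.05 CPM in pCEC. It was 3.08-fold lower in pCEC (adjusted p = 2.86e-04). All iCEC libraries were above pNCC, with iCEC 1 far above the others, and the difference did not pass (log2 1.82 ± 0.71, adjusted p = 0.101). Without iCEC 1 it was 0.54, and without iCEC 3 or with DESeq2 it passed (adjusted p = 0.0318 and 0.0347). Both chains were higher in iCEC than in pCEC, Ldha by 2.42-fold (adjusted p = 0.0141) and Ldhb by 10.8-fold (adjusted p = 0.0242). Ldha was lost without pCEC 1 or pCEC 2 and Ldhb without any 1 of the pCEC libraries (adjusted p 0.061 to 0.0989) or with no filter (adjusted p = 0.0723), and Ldhb was 2.17 on the log2 scale without iCEC 1 in place of 3.43. The B chain held 22.8% of the length-scaled counts in iCEC 1 and between 2.02% and 6.01% in the other 8 libraries.

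The PFKFB enzymes make and break fructose 2,6-bisphosphate, the strongest activator of phosphofructokinase. Pfkfb2 and Pfkfb4 rose in pCEC, where most enzymes of the path itself fell, while Pfkfb1 and Pfkfb3 did not pass there. Pfkfb2 stood at 9.18, 6.94 and 6.92 CPM in pNCC, 24.7, 19.1 and 22.9 CPM in iCEC and 49.6, 26.9 and 27.1 CPM in pCEC. The groups did not overlap. It was 2.95-fold higher in iCEC (log2 1.56 ± 0.24, adjusted p = 0.00529) and 4.45-fold higher in pCEC (log2 2.15 ± 0.30, adjusted p = 6.97e-04), and both calls held without any 1 library. Pfkfb4 stood at 12.4, 15.2 and 12.1 CPM in pNCC, 26.8, 67.9 and 2.74 CPM in iCEC and 59.9, 56.3 and 87.3 CPM in pCEC. It was 5.03-fold higher in pCEC than in pNCC (adjusted p = 5.72e-05). In iCEC it was above pNCC in iCEC 1 and 2 and below it in iCEC 3 (adjusted p = 0.338), and without iCEC 3 it passed (adjusted p = 0.0127), while the log2 fold change was 0.19 without iCEC 2 in place of 1.33. Pfkfb3, the form with the highest kinase activity, stood at 61.7, 61.6 and 47.4 CPM in pNCC, 42.0, 50.6 and 74.0 CPM in iCEC and 38.8, 40.1 and 51.8 CPM in pCEC, and passed no comparison (adjusted p = 0.994, 0.0532 and 0.329). Without pNCC 3 or without pCEC 3 the difference of pCEC from pNCC passed (adjusted p = 0.0262 and 0.0352), as it did for Pfkfb3 when scaled by total count only (adjusted p = 0.0192). Pfkfb1, known from liver and muscle, was at 1.27 to 4.06 CPM in all libraries and passed no comparison by edgeR (adjusted p = 0.158, 0.0702 and 0.922). With DESeq2 Pfkfb1 passed as lower than pNCC in iCEC and in pCEC (adjusted p = 0.0446 and 0.0447), and in pCEC also when scaled by total count only (adjusted p = 0.0476). No PFKFB gene differed between iCEC and pCEC by edgeR (adjusted p 0.234 to 0.922).

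In length-scaled counts Pfkfb3 held 62.0% ± 3.03 of the family in pNCC, and Pfkfb4 held 55.5% ± 6.18 in pCEC. The iCEC libraries disagreed: Pfkfb3 held 37.0%, 28.3% and 70.8% and Pfkfb4 36.6%, 58.9% and 4.06%. Among 8 families of isozymes the same member led in all 9 libraries in 5 with length scaling and in 6 without it. The families whose leader changed were phosphofructokinase, PFKFB and PDK.

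**Figure D3:**
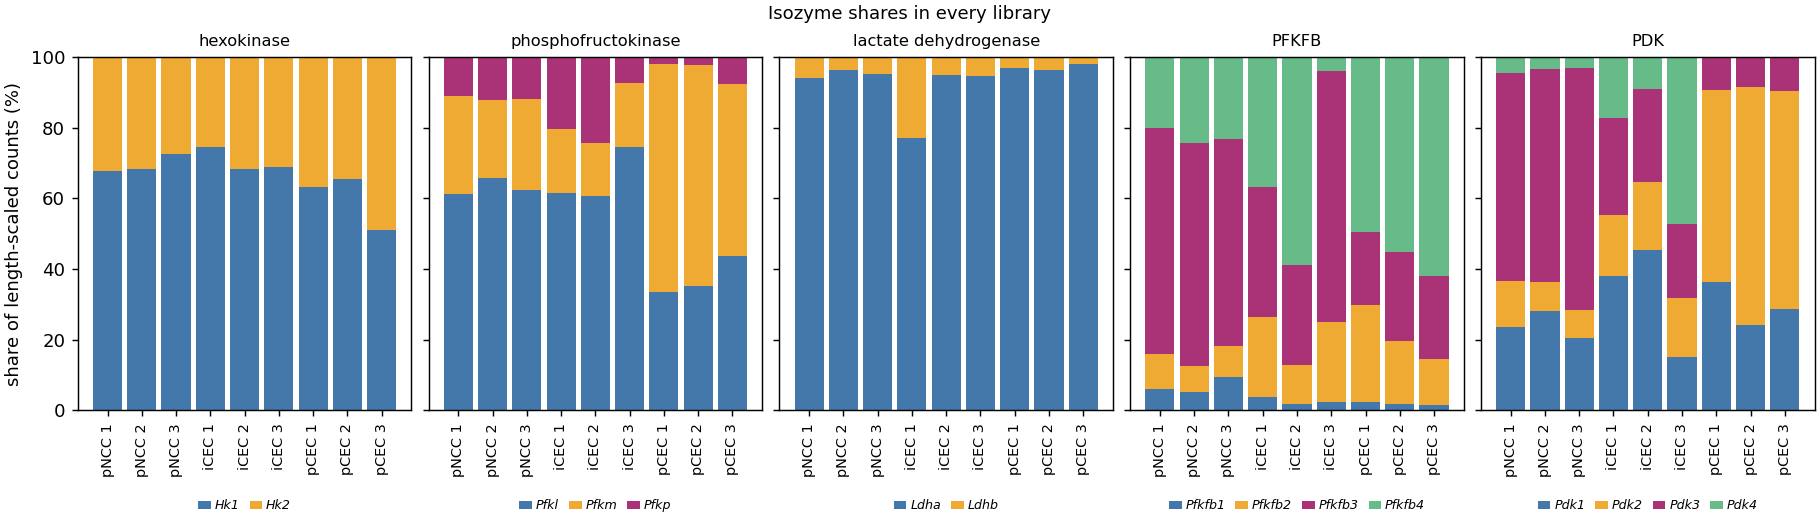
Share (%) of each isozyme in the length-scaled counts of its family, 1 bar per library, for hexokinase, phosphofructokinase, lactate dehydrogenase, PFKFB and PDK. The pCEC bars hold more Pfkm (48.8% to 64.5%), Pfkfb4 (49.5% to 61.8%) and Pdk2 (54.4% to 67.6%) than the pNCC bars, and iCEC 1 stands out for Ldhb at 22.8%.

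The PDK kinases, which shut pyruvate dehydrogenase, exchanged places. Pdk3 stood at 54.2, 49.8 and 56.3 CPM in pNCC, 30.3, 24.7 and 27.8 CPM in iCEC and 8.72, 10.9 and 10.6 CPM in pCEC. Pdk2 ran the opposite way, at 14.6, 8.32 and 8.01 CPM, 23.9, 22.04 and 27.7 CPM, and 64.1, 112 and 83.7 CPM. For both genes the 3 groups did not overlap and iCEC lay between pNCC and pCEC. Pdk3 was 1.89-fold lower in iCEC (log2 -0.92 ± 0.16, adjusted p = 0.00757) and 5.42-fold lower in pCEC (log2 -2.44 ± 0.13, adjusted p = 6.99e-06). Pdk2 was 2.43-fold higher in iCEC (log2 1.28 ± 0.30, adjusted p = 0.022) and 8.23-fold higher in pCEC (log2 3.04 ± 0.31, adjusted p = 1.54e-04). Its iCEC call was lost without pNCC 2, pNCC 3 or iCEC 1 (adjusted p = 0.103, 0.0903 and 0.0506). Between iCEC and pCEC both differed, Pdk3 by 2.87-fold higher and Pdk2 by 3.37-fold lower in iCEC (adjusted p = 0.00651 and 0.00758), and both held without any 1 library. Pdk3 held 62.6% ± 5.16 of the length-scaled PDK counts in pNCC and 8.94% ± 0.784 in pCEC, where Pdk2 held 61.2% ± 6.62. Without length scaling the order changed, since Pdk1 then led with 47.8% ± 5.27 in pNCC and 51.3% ± 7.48 in pCEC.

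Pdk4 and Pdk1, the kinases known for starvation and for hypoxia, behaved otherwise. Pdk4 stood at 5.55, 3.82 and 3.60 CPM in pNCC, 26.4, 11.4 and 85.9 CPM in iCEC and 0.0599, 0.489 and 0 CPM in pCEC. It was above pNCC in every iCEC library, most in iCEC 3, and nearly absent from pCEC, where it had 18 counts in all. Pdk4 was 9.74-fold higher in iCEC (log2 3.28 ± 0.77, adjusted p = 0.0223), a call lost without any 1 of the pNCC libraries (adjusted p 0.0771 to 0.0971) and worth 2.14 on the log2 scale without iCEC 3. It was 22.6-fold lower in pCEC than in pNCC (log2 -4.50 ± 0.91, adjusted p = 0.00416), or -6.82 without pCEC 2. The difference of iCEC from pCEC was 7.83 ± 1.42 on the log2 scale (adjusted p = 0.0137), lost without pCEC 1 or pCEC 3 (adjusted p = 0.0654 and 0.0526) or with no filter (adjusted p = 0.0596), and 6.67 without iCEC 3 and 10.2 without pCEC 2. In both comparisons with pCEC the gene passed the filter through the other group. Pdk1 stood at 66.2, 70.8 and 50.9 CPM in pNCC, 128, 128 and 60.8 CPM in iCEC and 106, 98.3 and 96.2 CPM in pCEC. It was 1.57-fold higher in pCEC (adjusted p = 0.00616). In iCEC it did not pass (adjusted p = 0.117), and without iCEC 3, the library that overlapped pNCC, it did (adjusted p = 0.0056).

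The carrier that takes pyruvate into the mitochondrion is a complex of Mpc1 and Mpc2, and both were higher in pCEC. Mpc2 stood at 23.9, 20.2 and 23.8 CPM in pNCC, 40.6, 31.0 and 47.1 CPM in iCEC and 87.7, 93.3 and 82.2 CPM in pCEC. The groups did not overlap. Mpc2 was 3.81-fold higher in pCEC than in pNCC (log2 1.93 ± 0.12, adjusted p = 1.60e-05) and 1.79-fold higher in iCEC (log2 0.84 ± 0.21, adjusted p = 0.0269). The iCEC call was lost without any 1 of the pNCC libraries or without iCEC 1 (adjusted p 0.0629 to 0.13), and with total count scaling (adjusted p = 0.0525). iCEC was 2.11-fold below pCEC (adjusted p = 0.0197), which was lost without iCEC 1 or any 1 of the pCEC libraries (adjusted p 0.0553 to 0.0876). Mpc1 stood at 7.43, 7.65 and 8.15 CPM in pNCC, 6.90, 8.75 and 11.9 CPM in iCEC and 17.9, 17.2 and 15.8 CPM in pCEC, 2.15-fold above pNCC in pCEC (adjusted p = 5.82e-04) in edgeR. Between iCEC and pCEC it did not pass (adjusted p = 0.104), but it did without iCEC 3 (adjusted p = 0.0215), with DESeq2 (adjusted p = 0.0424) and with all 9 libraries in 1 edgeR fit (adjusted p = 0.026). The processed copy Mpc1-ps held 25.4% as many counts as Mpc1, and 23.1% of the exon bases of Mpc1 overlap another gene, so reads could be shared. Pdha1, the catalytic subunit gene of pyruvate dehydrogenase, stood at 159 to 169 CPM in pNCC and 111 to 123 CPM in pCEC, 1.42-fold lower (adjusted p = 0.00519), with 103 to 171 CPM in iCEC.

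Of the 7 hypoxia response genes 3 were higher and 1 lower in iCEC than in pNCC, 1 was higher and 4 were lower in pCEC, and 5 were higher in iCEC than in pCEC. The shares of all genes called were 16.1% higher and 15.1% lower in iCEC than in pNCC. They were 30.3% and 32.2% for pCEC against pNCC, and 10.5% and 9.92% for iCEC against pCEC. Egln3 (ENSMUSG00000035105.5, chromosome 12, 54178981 to 54203860, minus strand, mm10) encodes PHD3, a prolyl hydroxylase that marks HIF for destruction and is itself a HIF target. It stood at 18.3, 15.2 and 10.0 CPM in pNCC, 298, 1327 and 187 CPM in iCEC and 1145, 1262 and 1656 CPM in pCEC. Every iCEC and pCEC library was at least 10 times the highest pNCC library, and iCEC 2 lay within the range of pCEC. Egln3 was 42.6-fold higher in iCEC (log2 5.41 ± 0.90, adjusted p = 0.00727) and 91.5-fold higher in pCEC (log2 6.52 ± 0.31, adjusted p = 4.46e-06), the largest change of the 37 genes in each of these comparisons. Per kilobase of exon the mean Egln3 level was 5.45 CPM in pNCC, 227 CPM in iCEC and 509 CPM in pCEC. Gapdh had 205 CPM per kilobase in pCEC. The lengths used are unions of all annotated exons, 2662 bases for Egln3 and 4133 for Gapdh. Such a union can exceed the length of a single transcript, so the order of these genes may depend on it. The Egln3 log2 fold change in iCEC against pNCC was 4.09 without iCEC 2. The Egln3 calls against pNCC in iCEC and pCEC both held without any 1 library. iCEC and pCEC did not differ by the test (adjusted p = 0.305) except without iCEC 2, where Egln3 was 2.38 lower on the log2 scale in iCEC (adjusted p = 0.0133).

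Hif1a, which encodes the oxygen-regulated subunit of HIF-1, fell in both. It stood at 816, 830.3 and 704 CPM in pNCC, 504, 526 and 351 CPM in iCEC and 131, 135 and 149.6 CPM in pCEC. The groups did not overlap. Hif1a was 1.67-fold lower in iCEC (log2 -0.74 ± 0.22, adjusted p = 0.0448), a call lost without any 1 of the pNCC libraries or without iCEC 1 or iCEC 2 (adjusted p 0.0505 to 0.153). It was 5.76-fold lower in pCEC (log2 -2.53 ± 0.13, adjusted p = 7.10e-06) and 3.45-fold higher in iCEC than in pCEC (adjusted p = 0.00406). HIF-1 is regulated mostly by the stability of its protein, which RNA counts do not measure.

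Ddit4, an inhibitor of mTORC1 raised by hypoxia and by glucocorticoids, moved in opposite directions. It stood at 85.03, 77.1 and 91.8 CPM in pNCC, 208, 170.5 and 166 CPM in iCEC and 12.1, 9.96 and 11.9 CPM in pCEC. It was 2.19-fold higher in iCEC (log2 1.13 ± 0.16, adjusted p = 0.00469) and 7.60-fold lower in pCEC (log2 -2.93 ± 0.15, adjusted p = 5.75e-06), so that iCEC stood 16.7-fold above pCEC (log2 4.06 ± 0.20, adjusted p = 6.44e-04). All 3 calls held without any 1 library. Ankrd37, a HIF target of low abundance, stood at 0.95, 0.787 and 0.543 CPM in pNCC, 3.69, 6.43 and 4.01 CPM in iCEC and 0.24, 0.428 and 1.13 CPM in pCEC. It was 6.31-fold higher in iCEC than in pNCC (adjusted p = 0.00803, 0.0558 without pNCC 2) and 8.22-fold higher than in pCEC (adjusted p = 0.0272, lost without iCEC 1, iCEC 2, pCEC 1 or pCEC 2 at 0.0508 to 0.125, and 3.85 in place of 3.04 on the log2 scale without pCEC 3). Against pCEC it passed the filter through iCEC. Other genes overlap 26.4% of the exon bases of Ankrd37.

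Vegfa, which encodes the vessel growth factor VEGF-A, stood at 185, 159 and 186 CPM in pNCC, 134, 490.0 and 360 CPM in iCEC and 8.27, 19.2 and 33.8 CPM in pCEC. The mitophagy receptor gene Bnip3 stood at 60.1, 54.5 and 48.1 CPM, 58.7, 145 and 79.3 CPM, and 1.02, 1.71 and 7.55 CPM. Both were far lower in every pCEC library than in any other library, and both overlapped between iCEC and pNCC (adjusted p = 0.173 and 0.122; without iCEC 1 Vegfa passed at 0.0136). Against pNCC, Vegfa was 8.93-fold lower in pCEC (log2 -3.16 ± 0.46, adjusted p = 9.19e-04) and Bnip3 16.7-fold lower (log2 -4.06 ± 0.69, adjusted p = 0.00194, -5.30 without pCEC 3). Against pCEC, iCEC was 16.8-fold higher for Vegfa and 28.9-fold higher for Bnip3 (adjusted p = 0.0121 and 0.0135), and both calls were lost without pCEC 2 (adjusted p = 0.0646 and 0.0635), with Bnip3 at 6.15 in place of 4.85 on the log2 scale without pCEC 3. Ndrg1, a stress response gene, stood at 88.1, 88.1 and 93.2 CPM in pNCC, 139.9, 511 and 181 CPM in iCEC and 98.1, 46.8 and 142 CPM in pCEC. All iCEC libraries were above pNCC, but the difference missed the threshold (log2 1.66 ± 0.50, adjusted p = 0.0505). It passed without any 1 of the iCEC libraries (adjusted p 0.0212 to 0.0321), and the log2 fold change was 0.87 without iCEC 2. Ndrg1 also passed with DESeq2 (adjusted p = 0.00943) and with 4 other settings of the edgeR fit (adjusted p 0.0381 to 0.0492): upper quartile scaling, total count only, a filter of 1 CPM in at least 3 libraries, and all 9 libraries in 1 fit. Between iCEC and pCEC Ndrg1 did not pass by edgeR (adjusted p = 0.117) and did with DESeq2 (adjusted p = 0.0437).

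Other genes of the same pathways came from lists that hold none of the 37. The counts of these lists are to be read beside the shares of all genes called. For iCEC against pNCC these were 16.1% higher and 15.1% lower. They were 30.3% and 32.2% for pCEC against pNCC, and 10.5% and 9.92% for iCEC against pCEC. Of 25 further hypoxia response genes 4 were higher and 5 lower in iCEC than in pNCC, 8 higher and 11 lower in pCEC, and 10 higher and 3 lower in iCEC than in pCEC. Epas1, the gene of HIF-2α, ran against Hif1a, at 20.0, 17.2 and 18.1 CPM in pNCC, 71.4, 82.7 and 278 CPM in iCEC and 624, 889 and 721 CPM in pCEC. The groups did not overlap, and Epas1 was higher by 2.999 ± 0.58 on the log2 scale in iCEC (adjusted p = 0.012) and by 5.31 ± 0.18 in pCEC (adjusted p = 1.54e-06). Arnt2, a partner subunit of the HIF proteins, fell from 36.1 to 68.5 CPM in pNCC to 0.149 to 1.09 CPM in iCEC (log2 -6.23 ± 0.76, adjusted p = 0.00284) and 4.82 to 5.66 CPM in pCEC (log2 -3.25 ± 0.26, adjusted p = 4.07e-05); in the comparison of iCEC with pNCC it passed the filter through pNCC. The collagen hydroxylase genes P4ha1 and Plod2 were lower in iCEC (log2 -2.37 ± 0.31 and -0.63 ± 0.18, adjusted p = 0.00352 and 0.0409) and in pCEC (log2 -3.61 ± 0.33 and -4.94 ± 0.38, adjusted p = 9.63e-05 and 4.41e-05). Mxi1, a repressor of the MYC network, was higher in both, at 72.4 to 102 CPM in iCEC and 68.9 to 84.0 CPM in pCEC against 36.3 to 36.8 CPM in pNCC. The circadian receptor gene Rora was lower in iCEC (log2 -1.55 ± 0.35, adjusted p = 0.019) and higher in pCEC (log2 1.67 ± 0.15, adjusted p = 8.59e-05). Ero1a, an oxidase of the endoplasmic reticulum, was 3.85 ± 0.68 higher on the log2 scale in iCEC than in pCEC (adjusted p = 0.0128), at 2.93 without iCEC 2 and lost without any 1 of the pCEC libraries (adjusted p 0.0515 to 0.0661).

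**Figure D4:**
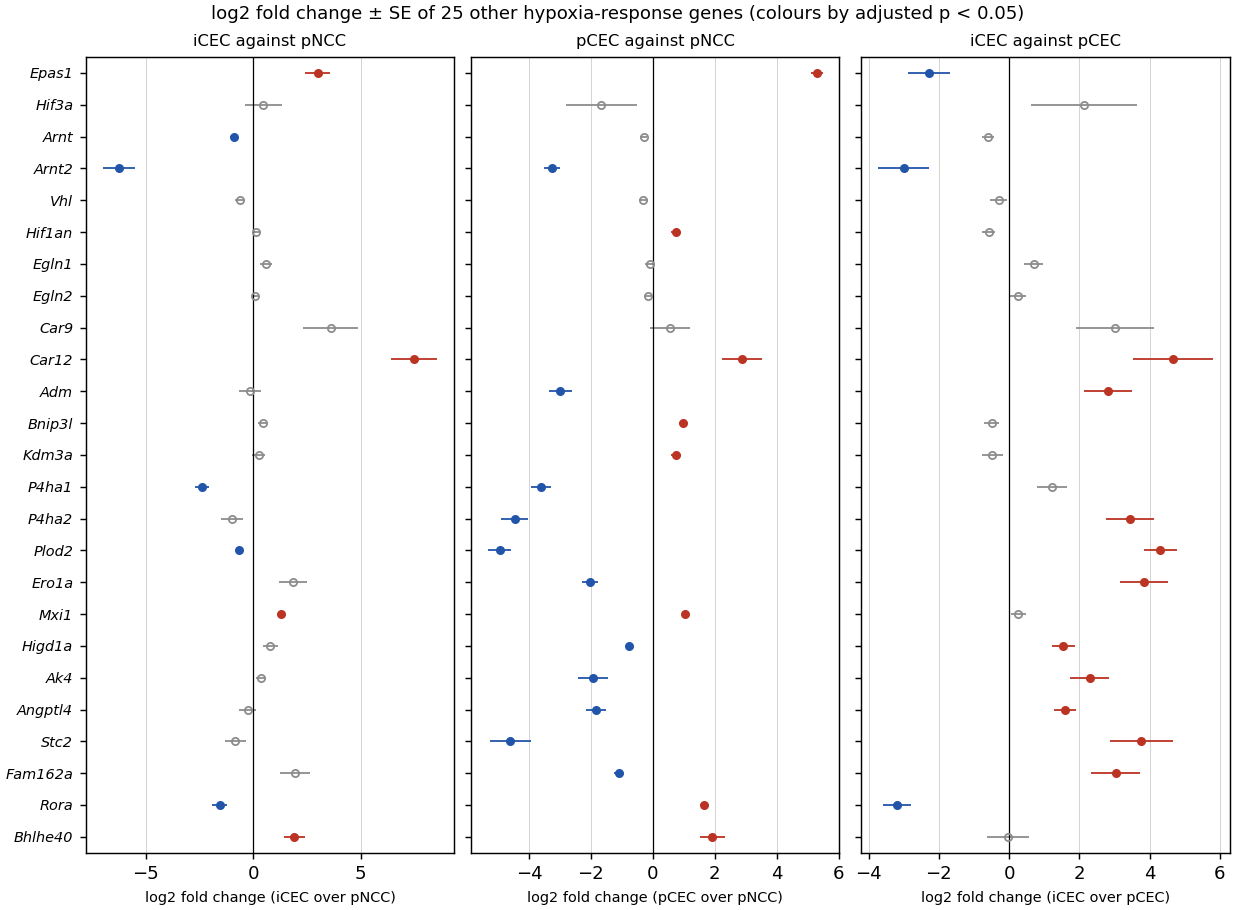
log2 fold change with its SE (bars) of 25 further hypoxia response genes in the 3 comparisons; filled red points were higher and filled blue points lower at an adjusted p under 0.05, and open grey points did not pass. Epas1 is red on the left and in the middle (2.999 and 5.31), while P4ha1 and Plod2 are blue in both of those panels.

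Among 19 further genes of glycolysis and its carriers, 12 could be tested in iCEC against pNCC (2 higher, 2 lower), 13 in pCEC against pNCC (5 higher, 6 lower) and 13 in iCEC against pCEC (3 higher, 10 not passing). The muscle enolase gene Eno3 was lower in iCEC (log2 -2.01 ± 0.41, adjusted p = 0.0137, lost without pNCC 2 or pNCC 3 at 0.0642 and 0.0551) and in pCEC (log2 -1.83 ± 0.19, adjusted p = 1.67e-04). Ldhd, a mitochondrial D-lactate dehydrogenase, rose from 0.45 to 0.832 CPM in pNCC to 5.87 to 24.6 CPM in iCEC (log2 4.50 ± 0.67, adjusted p = 0.00519, 3.77 without iCEC 1) and 8.60 to 9.99 CPM in pCEC (log2 3.85 ± 0.31, adjusted p = 4.46e-05). The muscle fructose bisphosphatase gene Fbp2 had 2 counts in pNCC, 14.7, 10.5 and 0.348 CPM in iCEC and 0.42 to 0.719 CPM in pCEC. It passed the filter on low counts through iCEC and pCEC, the groups where it is higher, so its calls against pNCC are not given as results. The lactate carrier gene Slc16a1 (MCT1) stood at 91.5, 89.1 and 116 CPM in pNCC, 278, 182 and 26.3 CPM in iCEC and 7.10, 6.11 and 15.5 CPM in pCEC. It fell by 3.41 ± 0.37 on the log2 scale in pCEC (adjusted p = 2.26e-04) and did not pass in iCEC (adjusted p = 0.488), where iCEC 3 was below pNCC and the other iCEC libraries above it. It was higher in iCEC than in pCEC by 4.12 ± 0.88 (adjusted p = 0.0227, lost without iCEC 1, where it was 3.48, or any 1 of the pCEC libraries, at 0.0516 to 0.0979). Its chaperone gene Bsg was 1.35 ± 0.24 higher on the log2 scale (adjusted p = 0.0119, lost without any 1 of the pCEC libraries at 0.0581 to 0.0665) and Bpgm, of the 2,3-bisphosphoglycerate shunt, 0.79 ± 0.18 (adjusted p = 0.0261, lost without iCEC 1 or any 1 of the pCEC libraries at 0.0594 to 0.122).

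Of 10 further genes around pyruvate dehydrogenase 9 could be tested in each comparison. In iCEC 1 was lower than in pNCC and 8 did not pass, 4 were higher and 4 lower in pCEC, and 3 were higher and 2 lower in iCEC than in pCEC. Pck2, which makes phosphoenolpyruvate in the mitochondrion, stood at 268, 243 and 210.4 CPM in pNCC, 75.2, 81.0 and 61.7 CPM in iCEC and 23.6, 41.0 and 37.5 CPM in pCEC, lower by 1.69 ± 0.18 and 2.85 ± 0.21 on the log2 scale (adjusted p = 0.002 and 3.27e-05). The phosphatase gene Pdp2, whose product switches pyruvate dehydrogenase on, was 1.64 ± 0.22 higher in pCEC than in pNCC (adjusted p = 5.71e-04), and Dlat, a core subunit of the complex, was lower by 0.64 ± 0.12 (adjusted p = 0.003). Between iCEC and pCEC, Pdp2 and Pdhx were lower in iCEC by 1.49 ± 0.24 and 1.18 ± 0.24 on the log2 scale and Dlat was 0.86 ± 0.16 higher (adjusted p = 0.0103, 0.018 and 0.0143). These were lost without pCEC 3 for Pdp2, without any 1 of the pCEC libraries for Dlat, and for Pdhx also without iCEC 1 (adjusted p 0.0514 to 0.0867).

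The list of 15 genes of the pentose phosphate path and of glycogen could be tested whole. It had 4 higher and 1 lower in iCEC than in pNCC, 7 higher and 3 lower in pCEC, and 2 higher and 3 lower in iCEC than in pCEC. Tkt, the transketolase known as a major protein of the mouse cornea, stood at 160, 198 and 273 CPM in pNCC, 753, 379 and 313 CPM in iCEC and 7446, 11396 and 10504 CPM in pCEC. The pCEC libraries were the highest by far, 5.51 ± 0.31 above pNCC on the log2 scale (adjusted p = 9.13e-06). The summed level of the surface epithelium markers was also highest in pCEC, although Krt8, Krt18, Krt14, Epcam and Cdh1 had higher means in iCEC. The part of surface epithelium cells in the Tkt level was not tested. Taldo1 and Rpia, of the same path, were higher in iCEC by 2.47 ± 0.21 and 1.57 ± 0.22 (adjusted p = 8.92e-04 and 0.00423) and in pCEC by 1.74 ± 0.14 and 2.41 ± 0.12 (adjusted p = 4.48e-05 and 5.03e-06). Pgm2 was 1.03 ± 0.27 higher in iCEC (adjusted p = 0.0309), lost without any 1 library but iCEC 3 (adjusted p 0.0744 to 0.116). Of the glycogen genes, Pygl (glycogen phosphorylase) rose by 2.95 ± 0.20 in pCEC against pNCC (adjusted p = 1.98e-05) and was lower in iCEC than in pCEC (log2 -4.26 ± 0.69, adjusted p = 0.0102, and -5.13 without iCEC 2). Gys1 (glycogen synthase) was lower in iCEC and in pCEC than in pNCC, by 0.69 ± 0.19 and 2.40 ± 0.18 (adjusted p = 0.0378 and 3.10e-05).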

How the data were processed

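RNA from 9 mouse cultures was sequenced, per the labels' protocols, with paired reads of 150 bases from a library kit that does not mark strand; 7 libraries are labelled polyA RNA and 2, pCEC 2 and 3, total RNA. The authors deposited raw read counts per gene symbol; the build mm10 and edgeR are named in the submitters' processing notes, and the aligner, counter and annotation are not given in the sources used here. Each comparison was fitted on its 6 libraries with edgeR 4.0.16 (R 4.3.3): filterByExpr, TMM scaling, the robust quasi-likelihood test, 2-sided, with Benjamini-Hochberg adjustment over all genes tested and a threshold of 0.05. CPM values are TMM-scaled, and the SE is the log2 fold change divided by the root of the F statistic. The alternatives used DESeq2 1.42.0 and other scalings, filters and library sets, and the fits were tested on simulated data.

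Exon lengths came from GENCODE M21 (37 of 37 genes matched) and promoters from RefSeq GRCm38.p6. Each length is the union of all annotated exons of a gene, which can exceed that of a single transcript. Near-identical copies were found with minimap2 2.31-r1302 (at least 95% identity over 300 bases). Without strand, reads from overlapping genes cannot be told apart: such overlap covers 26.4% of the exon bases of Ankrd37, 23.1% of Mpc1, 22.3% of Bnip3, 19.5% of Pfkfb2, 16.1% of Pdha1, 15.3% of Pkm, 11.5% of Gpi1 and 10.7% of Pfkm. Same-numbered libraries of different groups did not deviate together (correlations -0.181 to 0.0714), so replicate numbers were not used as pairs. The 37 genes and the other lists were chosen with earlier results of these data known. Genes given library by library were, per comparison and role, up to 4 called genes with the smallest adjusted p and every member of an isozyme family; genes outside the 37 were up to 3 called genes per list and comparison, and others named were chosen for their role.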

Additional observations from a re-analysis of the deposited data

How the results depend on the processing

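No change of setting turned the direction of a called result. For iCEC against pNCC, with the replicate number as a block edgeR called 2864 genes in all, and 5 of the 37 genes higher and 2 lower. A minimum change of 2-fold left 1 of the 37 lower there. Leaving out each library gave 2322 to 7684 genes, 3 to 16 of the 37 higher and 2 to 4 lower. For iCEC against pCEC the block gave 1295 genes, with 10 of the 37 higher and 1 lower. DESeq2 and a fit of all 9 libraries each gave 4 of the 37 lower, and pCEC 1 alone gave 0 in all, 0 higher and 0 lower. Leaving out each library gave 1131 to 4974 genes, 7 to 20 of the 37 higher and 1 to 4 lower. For pCEC against pNCC the block gave 9777 genes with 9 of the 37 higher and 22 lower, as without it, and leaving out each library gave 9207 to 10687, 8 to 9 and 21 to 24. In the fit of all 9 libraries Slc2a3, Ldhb, Pfkfb4, Pdk1 and Pdha1 no longer passed there (adjusted p = 0.0751, 0.0659, 0.0517, 0.0766 and 0.0756). The cause of these changes was not tested. Same-numbered libraries share only a number. With pCEC 1 alone its spread is assumed to equal that of the other group. Scaling moved 3 uncalled genes across 0: Pfkfb3 in iCEC against pNCC (-0.04 to 0.03 on the log2 scale), Ndrg1 in pCEC against pNCC (-0.07 to 0.10) and Pfkfb1 in iCEC against pCEC (-0.12 to 0.02). Depth limits low genes such as Slc2a3, Pfkfb1 and Ankrd37, and Pdk4 in pCEC, since 3 counts are 0.0625 to 0.11 CPM.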
